A study of Mus musculus with 12 samples.

Results

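The contractile and calcium-handling genes of skeletal muscle fibres were followed across tongue RNA (poly-A selected) as a list of 45 genes, all of which were found by symbol among the 23235 gene rows of the tables. The list holds 12 genes of the thick filament, 11 of the thin filament, 8 of the Z-disc and its scaffold, 9 of calcium handling and 5 of energy and oxygen supply. Of these, 14 were placed on a list of fast-type genes, 11 on a list of slow-type genes and 20 are on neither list. A place on a list does not show which fibres expressed the gene here. The tongue is mostly striated muscle under a squamous epithelium. In a muscle fibre, myosin heads of the thick filament pull on actin of the thin filament, and troponin and tropomyosin allow this only when calcium is bound. The calcium channel of the surface membrane opens the ryanodine receptor of the sarcoplasmic reticulum, calsequestrin holds the store, parvalbumin buffers released calcium in fast fibres, and the SERCA pump returns it. Fast and slow fibres use different genes for most of these parts.

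Tongues came from 31-week-old C57BL/6 mice, 12 samples in 4 groups of 3. All mice carry the same strain background, with no transgene named. The labels give the groups as V.C./Untr., V.C./EtOH, 4-NQO/Untr. and 4-NQO/EtOH, where EtOH is ethanol and 4-NQO is a DNA-damaging carcinogen used to induce tongue tumours. The tables hold 1 level per gene and numbered group (FPKM, fragments scaled to transcript length and to library size, so that levels can be compared between genes). No label or header ties a number to a treatment. All results are therefore between numbered groups 1 to 4, values per sample are not analysed here, and the read depth is unknown. The labels do not say that samples are separate animals, so p-values cannot be read as measuring the spread between animals. They come from the authors' own test, whose error model is not stated, and the spread between samples was not seen here. A gene is called higher or lower when the authors marked it as tested, their q was under 0.05 and either group reached 1 FPKM. Differences are in log2(FPKM + 1) and their standard errors (SE, n = 3 per group as the design text states) come from the authors' statistics. Counts of members lower by 2-fold or more are on the ratio of FPKM itself, with nothing added.

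These genes were among the most abundant in the tongue. In group 1, 15 of 44 listed members stood at 1000 FPKM or more, of only 97 genes in the whole table, and a further 8 stood between 100 and 1000 FPKM. Troponin C of fast muscle, Tnnc2 (mm9 chromosome 2, 164602661 to 164605234), was the highest member with a level in groups 1 to 3, at 8333, 7320.3, 3354 and 3448 FPKM in the 4 groups in turn. Myoglobin, Mb, the oxygen store of muscle and the highest member in group 4, stood at 6991, 6127, 3194 and 4194 FPKM. Skeletal actin, Acta1 (chromosome 8, 126415666 to 126418636), exceeded the authors' read limit in groups 1 and 2, where its listed 0 is a missing value, and was at 2927 and 3941 FPKM in groups 3 and 4. The other markers of the fibre were also present in every group: Mybpc2 at 19.0 FPKM or more and Pvalb at 168 or more. Of the heart muscle markers, Myh6 and Nppa were at or under 0.110 FPKM in every group. Actc1, an actin of heart and developing skeletal muscle, stood at 413, 316, 84.9 and 51.9 FPKM and was lower in groups 3 and 4 against group 1, and Nppb, at 0.0892 FPKM or less in groups 1 and 2, was higher at 9.40 and 5.49.

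The 44 members with a level in all groups summed to 60891, 56311.5, 27138 and 32848 FPKM in groups 1 to 4. That is 10.7%, 10.5%, 5.52% and 6.93% of the summed FPKM of all genes listed in every group. Groups 3 and 4 were thus both below groups 1 and 2. Of the 44 members, 39 had both group 1 and group 2 above both group 3 and group 4, against 5946 of 13427 genes in all, and 37 had their level in group 3 below that in group 4. Over all genes tested between groups 3 and 4, 5037 of 12918 were higher in group 4. In bulk tissue, fewer muscle fibres and less of these RNAs per fibre cannot be told apart.

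**Figure D1:**
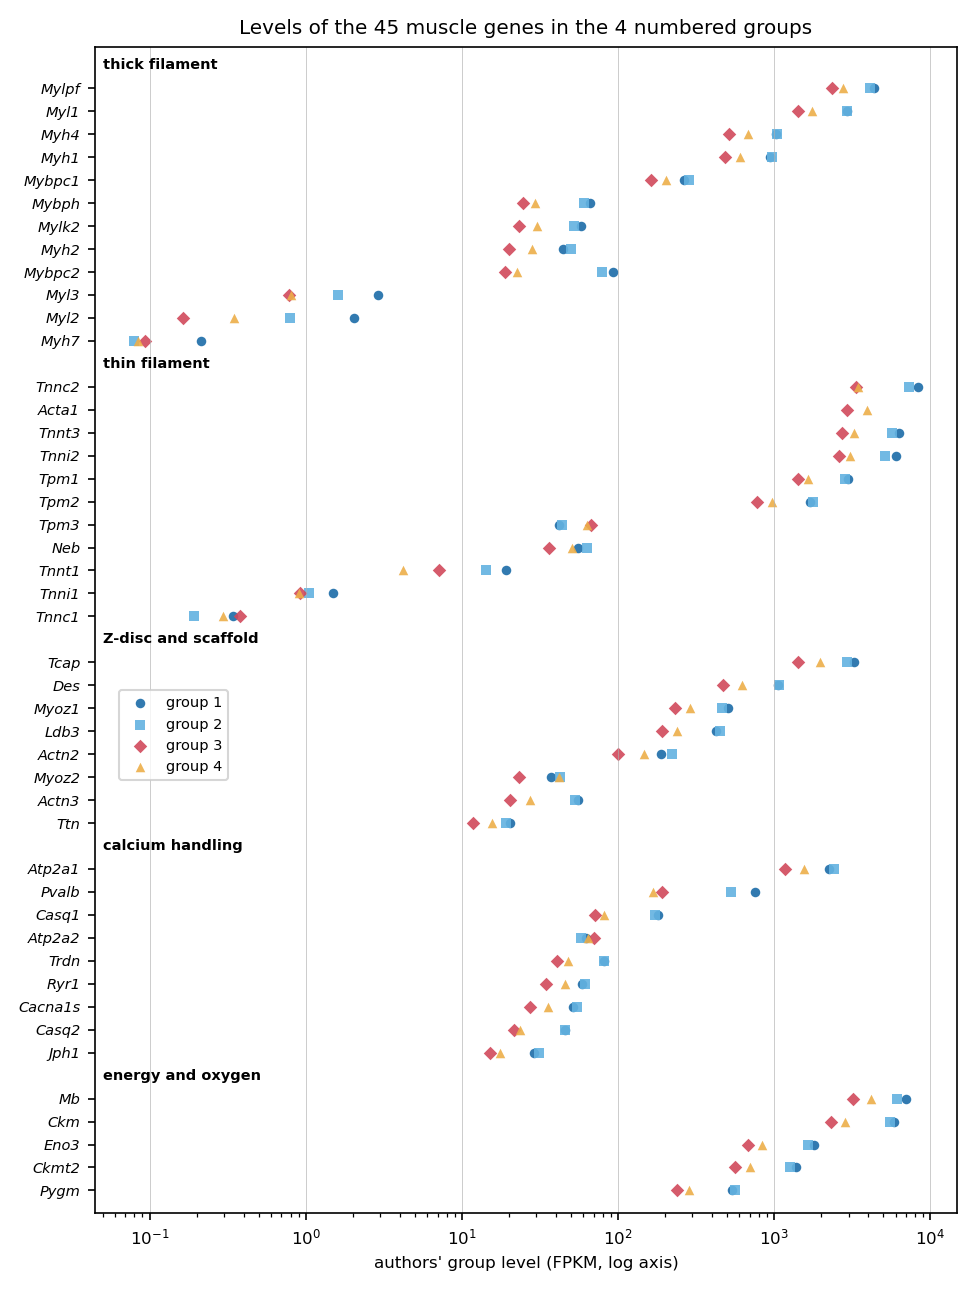
Level of each of the 45 genes in the 4 numbered groups (FPKM, log axis), grouped by role and sorted by the level in group 3; each symbol is the authors' value for a whole group, with no error drawn. Symbols of groups 3 and 4 lie left of those of groups 1 and 2 for 39 of the 44 genes listed in all groups, and Acta1 has no symbol for groups 1 and 2.

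Groups 1 and 2 were compared first, and no member passed the test between them. The median difference of the 42 members tested was -0.06 on the log2 scale (0.02 over all genes tested), with a range from -0.76 to 0.23. Of all genes tested, 0.594% were higher and 0.305% lower by the authors' test. On the FPKM ratio only Myl2, at 2.04 and 0.796 FPKM, was lower by 2-fold or more, 1 of 42 members where 0.594% of all genes were. Of the members, 2, Myl2 and Pvalb, had an unadjusted p under 0.05 in the authors' deposited table, a share of 4.76% against 3.40% of all genes. Retests with 1 variance per gene, or after centring, also called 0 members.

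In group 3 against group 1 the levels of muscle genes were lower in all 5 roles, with role medians from -1.30 to -0.92. The median difference over 42 members tested was -1.12, a 2.18-fold lower level, while the median over all genes was -0.04. Of these members 27 were lower by 2-fold or more, 64.3% against 7.24% of all genes. Only 2 members, 4.76%, passed the authors' test as lower, and 0 as higher, where 0.282% of all genes tested were called lower and 2.52% higher. These were Mybpc2 and Myl2. Among the 42 members 14 had an unadjusted p under 0.05 in the authors' deposited table, against 1580 of 13114 genes in all.

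Mybpc2, the fast-type myosin-binding protein C that links thick filaments and tunes the myosin heads (chromosome 7, 51757068 to 51780039), stood at 93.1, 79.6, 19.0 and 22.7 FPKM in groups 1 to 4. It fell by 2.23 ± 0.53 (SE) in group 3 against group 1, with q = 0.00317 in the authors' deposited table. Myl2, the regulatory light chain of slow and cardiac myosin (chromosome 5, 122550988 to 122556863), stood at 2.04, 0.796, 0.163 and 0.348 FPKM and fell by 1.39 ± 0.27 in the same comparison (q = 0.0426 in the authors' deposited table). The authors' q rests on the log2 ratio with nothing added, which was -3.65 with an SE of 1.13. At such low levels the added 1 makes both the difference and its SE smaller. The level of Myl2 is near the filter, and its call ended with a filter of 5 FPKM and after centring on the median of all genes. Mybpc2 was the only member called with these alternatives.

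In group 4 against group 1 the median difference of the members was -0.78, a 1.71-fold lower level, against -0.08 over all genes. Genes with 5 FPKM or more had a median ratio of -0.16 here (log2), and relative to that shift the members' median was -0.62. Here 11 of 42 members were lower by 2-fold or more, 26.2% against 7.88% of all genes. The members that fell were Mybpc2, Tnnt1, Pvalb, Casq1 and Casq2. These 5 are 11.9% of the members tested, where 3.91% of all genes were called lower and 5.0% higher, and 0 members were higher. The share with an unadjusted p under 0.05 was 28.6% in the members and 24.6% over all genes in the authors' deposited table.

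Parvalbumin, Pvalb (chromosome 15, 78021547 to 78034586), stood at 755, 528, 193 and 168 FPKM in groups 1 to 4. It fell by 2.16 ± 0.41 in group 4 against group 1, with q = 3.47e-05 in the authors' deposited table. Group 2 lay between group 1 and the lower groups 3 and 4. Tnnt1, the slow troponin T that anchors the troponin complex to tropomyosin (chromosome 7, 4456264 to 4467577), stood at 19.1, 14.4, 7.12 and 4.20 FPKM and fell by 1.95 ± 0.40 (q = 7.39e-04 in the authors' deposited table). It was 1 of 7 members whose level was lower in group 4 than in group 3. Mybpc2 fell by 1.99 ± 0.38 in group 4 (q = 5.19e-05 in the authors' deposited table).

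Both calsequestrin genes fell by about the same amount. Casq1, the fast-type calcium store protein (chromosome 1, 174140024 to 174150026), stood at 180.3, 173, 70.9 and 81.4 FPKM and fell by 1.14 ± 0.32 in group 4 against group 1 (q = 0.0198 in the authors' deposited table). Casq2, its slow and cardiac counterpart (chromosome 3, 101890432 to 101950435), stood at 46.0, 45.8, 21.7 and 23.5 FPKM and fell by 0.94 ± 0.28 (q = 0.0374 in the authors' deposited table). Neither call held at a q threshold of 0.01 or with 1 variance per gene for all groups.

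**Figure D2:**
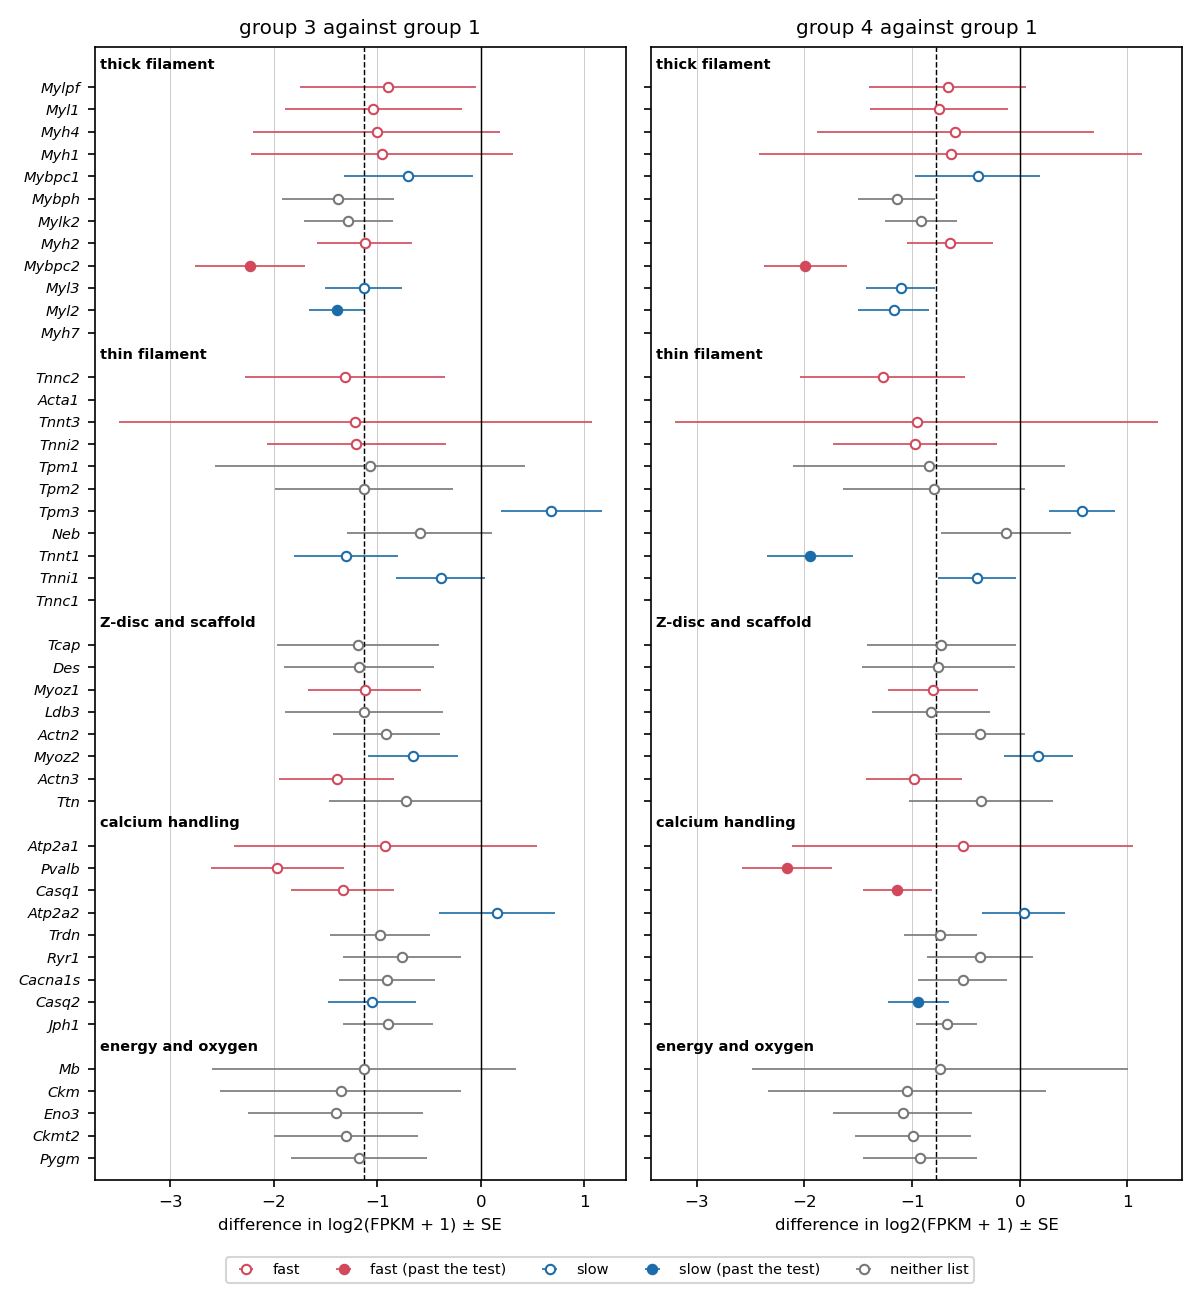
Difference in log2(FPKM + 1) of each tested member in group 3 and in group 4 against group 1, with bars of 1 SE; filled symbols passed the authors' test, the solid line marks 0 and the dashed line the median of the members (-1.12 and -0.78). The points of most genes lie near the dashed line, with Mybpc2, Pvalb and, in group 4, Tnnt1 well to its left and Tpm3 to its right.

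Groups 3 and 4 were also compared with group 2 and with each other. Group 3 against group 2 gave a median difference of -1.03 over 41 members (all genes -0.04). In this comparison 28 members were lower by 2-fold or more (68.3% against 7.72% of all genes), and 1, Mybpc2, passed the test (2.01 ± 0.55 lower, q = 0.0155 in the authors' deposited table), where 0.229% of all genes were called lower and 1.61% higher. Group 4 against group 2 gave -0.76 (all genes -0.09, and a shift of -0.14 among genes with 5 FPKM or more). Of its members 6 were lower by 2-fold or more, 14.6% against 6.45% of all genes. Mybpc2, Tnnt1 and Pvalb passed as lower, 7.32% of the 41 tested where 2.25% of all genes were called lower and 3.31% higher, with falls of 1.77 ± 0.40, 1.56 ± 0.43 and 1.65 ± 0.43. The call of Tnnt1 ended at a q threshold of 0.01 and that of Pvalb with 1 variance per gene. These comparisons share groups with the ones above and are no separate evidence. Group 4 against group 3 had 36 of 40 members above 0 with a median of 0.31, beside 5037 of 12918 genes in all and a median of -0.04. However, 0 members passed the authors' test, 0 had an unadjusted p under 0.05, and every retest called 0. There, 0.170% of all genes were called higher and 0.124% lower, and 0 members against 1.65% of all genes were lower by 2-fold or more. The median SE of a member's difference was 0.81 in that comparison, larger than the differences of all but 1 of the members tested.

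In the thick filament, the fast heavy chains Myh4 and Myh1 (myosins of type IIb and IIx fibres) stood at 1028 and 944 FPKM in group 1 and at 512 and 486 in group 3. Type IIa myosin, Myh2, was far lower, at 44.6, 49.9, 19.9 and 28.1 FPKM in groups 1 to 4. Their differences in group 3 against group 1 lay between -1.12 and -0.96, with SEs of 0.46 to 1.26, and none passed. These 3 genes lie side by side within about the same stretch of chromosome 11, from 66984528 to 67073948, in the order Myh2, Myh1, Myh4. The composition of the adult heavy chains differed little between groups: Myh4 made up 51.0%, 50.7%, 50.3% and 51.7% of their summed FPKM in groups 1 to 4, Myh1 46.8%, 46.9%, 47.8% and 46.1%, and Myh2 between 1.96% and 2.43%. The slow heavy chain Myh7 was at 0.213 FPKM or less in every group and was not tested by the authors.

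The light chains of fast myosin were the most abundant thick filament genes. Mylpf, the fast regulatory light chain, stood at 4381, 4088, 2355 and 2753 FPKM, and Myl1, the fast essential light chain, at 2927, 2948, 1426 and 1743. Neither passed. Myl3, the slow essential light chain, stood at 2.90, 1.61, 0.778 and 0.811 FPKM and differed by -1.11 ± 0.32 in group 4 against group 1 (q = 0.0830 in the authors' deposited table). Mylk2, the kinase that phosphorylates the regulatory light chain, differed by -1.28 ± 0.43 in group 3 (q = 0.0887 in the authors' deposited table). Mybph, a relative of the myosin-binding proteins, differed by -1.14 ± 0.36 in group 4 (q = 0.0511 in the authors' deposited table). Mybpc1, the slow-type binding protein, was more abundant than Mybpc2 throughout and differed by only -0.70 ± 0.63 and -0.39 ± 0.58 in groups 3 and 4.

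In the thin filament, the fast troponin genes were abundant beside Acta1. Tnni2, the inhibitory subunit, stood at 6015, 5136, 2613 and 3066 FPKM, and Tnnt3, which binds tropomyosin, at 6282, 5706, 2713 and 3231. Tnni2 and Tnnt3 are neighbours on chromosome 7, from 149628372 to 149701914. Tnnt3 had the largest error of all members: its difference of -1.21 in group 3 against group 1 had an SE of 2.28. The slow partners Tnni1 (0.903 to 1.504 FPKM) and Tnnc1 (0.194 to 0.378 FPKM) were close to the floor. Nebulin, Neb, the giant ruler of the thin filament, stood at 55.3, 63.5, 36.4 and 50.6 FPKM, and its difference of -0.13 ± 0.60 in group 4 against group 1 was the closest to 0 of the filament genes tested there.

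Among tropomyosins, Tpm1 and Tpm2 followed the rest (2974 to 1418 and 1691 to 773 FPKM from group 1 to group 3), while Tpm3 did not. Tpm3, the slow tropomyosin gene, which also makes cytoskeletal isoforms in many cell types, stood at 41.7, 44.0, 67.6 and 62.9 FPKM in groups 1 to 4. Its differences of 0.68 ± 0.48 and 0.58 ± 0.31 against group 1 did not pass. Measured from the members' own median, a comparison chosen after the data were seen, Tpm3 was higher by 1.83 ± 0.49 in group 3 (adjusted p = 0.00180, normal test of the centred ratio, adjusted over all genes tested) and by 1.37 ± 0.31 in group 4 (adjusted p = 1.13e-04, same test). That median was taken as free of error and comes from members chosen with earlier results known. The adjusted p-values of this test, here and below, are therefore descriptions and not evidence that a gene departs from the other muscle genes.

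In the same test against group 1, group 4 had Pvalb (-1.39 ± 0.42, adjusted p = 0.00415), Tnnt1 (-1.40 ± 0.48, adjusted p = 0.0138) and Mybpc2 (-1.26 ± 0.40, adjusted p = 0.00670) below the median of the muscle genes and Myoz2 (0.96 ± 0.33, adjusted p = 0.0135) above it. In group 3 against group 1, of the members Tpm3 alone passed it, and Mybpc2 and Pvalb stood 1.11 and 0.84 below the members' median in log2(FPKM + 1) with no call. Over the whole table this test called 5415 genes higher and 11 lower of 13015 in group 3 against group 1, and 4830 higher and 119 lower of 13007 in group 4 against group 1, so a call above the members' median is common among all genes.

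Among Z-disc and scaffold genes, titin-cap, Tcap, which ties titin to the Z-disc, was the highest of this role at 3254, 2929, 1431 and 1963 FPKM, and desmin, Des, the intermediate filament around the Z-disc, stood at 1058, 1074, 468 and 626. Actn3, the fast-fibre alpha-actinin, had the largest difference (-1.39 ± 0.55 in group 3 against group 1, q = 0.207 in the authors' deposited table), while Actn2, the alpha-actinin of all fibres, differed by -0.91 ± 0.52. Myoz2, a slow-type calsarcin that binds calcineurin at the Z-disc, stood at 37.1, 42.7, 23.2 and 41.9 FPKM. Its level in group 4 lay within the range of groups 1 and 2, and its difference from group 3 (0.83 ± 0.52) did not pass. The fast-type Myoz1 stood at 508, 466, 233 and 290 FPKM. Titin itself, Ttn, and the Z-disc protein Ldb3 differed by -0.72 ± 0.74 and -1.12 ± 0.76 in group 3 against group 1. None of these 8 genes passed the test in any comparison.

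In calcium handling, beside Pvalb and the calsequestrins, the genes of calcium release were measured. Cacna1s, the voltage sensor of the surface membrane, stood at 51.8, 55.0, 27.2 and 35.6 FPKM and Ryr1, the release channel, at 59.3, 61.3, 34.6 and 45.7. Trdn and Jph1, which hold the release complex to the store and to the membrane, differed by -0.98 ± 0.48 and -0.90 ± 0.43 in group 3 against group 1. None of these 4 passed. Atp2a1, the fast SERCA pump, stood at 2240.3, 2413, 1183 and 1549 FPKM. Atp2a2, the slow pump, which most other cells also make, stood at 62.7, 57.6, 70.0 and 64.3 FPKM, with a difference of 0.16 ± 0.56 in group 3.

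The 5 genes of energy and oxygen supply had the lowest median of the roles in group 3 against group 1, -1.30, but 0 passed the authors' test, and a test between roles was not made. The muscle-type creatine kinase, Ckm, stood at 5901, 5514, 2313 and 2856 FPKM, and its mitochondrial partner Ckmt2 at 1387, 1264, 562 and 697. Eno3, the muscle enolase, differed by -1.40 ± 0.84 in group 3 and -1.09 ± 0.65 in group 4. The glycogen phosphorylase Pygm stood at 541, 561, 239 and 284 FPKM.

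Fast and slow isoforms were compared in 10 pairs. In 9 of the 10 the fast gene was above its slow counterpart in every group, by the least for Casq1 and Casq2 (ratios of 3.27 to 3.92), and the tongue's slow genes were near the floor for myosin and for troponins I and C. The median log2 level of the fast gene minus that of the slow gene was 8.92, 9.23, 8.63 and 9.28 in groups 1 to 4, on the log2(FPKM + 1) scale. The exception was the myosin-binding protein C pair, in which the slow-type Mybpc1 held 74.1% and 78.2% of the pair's FPKM in groups 1 and 2, then 89.6% and 90.0% in groups 3 and 4. Mybpc1 stood at 164 to 285 FPKM in the 4 groups, where Myh7 was at 0.213 or less. Which fibres expressed Mybpc1 was not tested. The slow pump Atp2a2 went from 2.72% and 2.33% of its pair to 5.58% and 3.99%, and Myoz2 from 6.79% and 8.40% to 9.03% and 12.6%. The slow light chains had smaller shares in groups 3 and 4 than in groups 1 and 2: Myl2 went from 0.0465% and 0.0195% to 0.00691% and 0.0126%, and Myl3 from 0.0989% and 0.0547% to 0.0545% and 0.0465%. The shares of Myl3 in groups 2 and 3 were nearly equal. Slow troponins I and C had larger shares in groups 3 and 4. Tnni1 went from 0.0250% and 0.0205% to 0.0351% and 0.0295%, and Tnnc1 from 0.00410% and 0.00265% to 0.0113% and 0.00862%. Myh7 had 0.0207%, 0.00764%, 0.0184% and 0.0125% in groups 1 to 4. The slow troponin T Tnnt1 had 0.303%, 0.251%, 0.262% and 0.130% in groups 1 to 4. Calsequestrin 2 kept between 20.3% and 23.4%. With no values per sample, the spread of such ratios is unknown and no test of them was made.

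**Figure D3:**
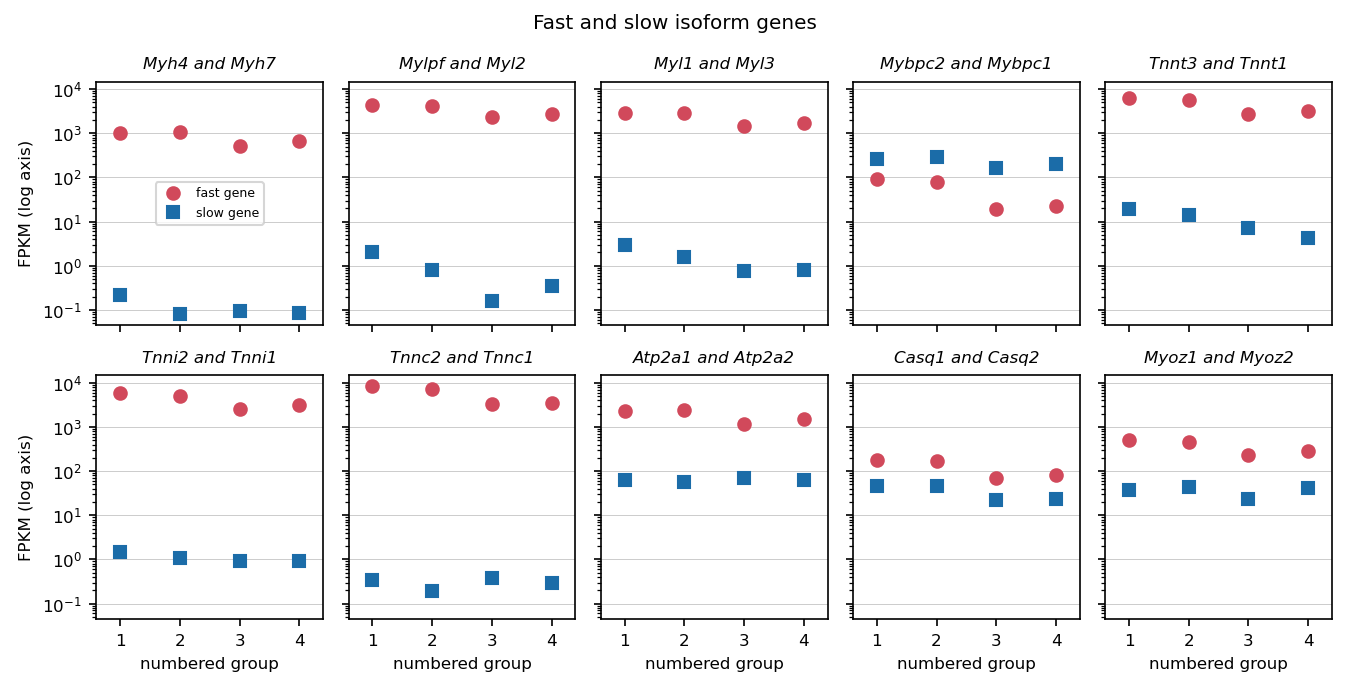
Level of the fast gene (circles) and of its slow counterpart (squares) in the 4 numbered groups for each of 10 pairs (FPKM, log axis), as the authors' group values with no error drawn. The fast gene is above in every pair except Mybpc2 and Mybpc1, whose distance widens from a ratio of 0.349 in group 1 to 0.111 in group 4.

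The medians of the fast and slow lists are given as a description, with no test between them. In group 3 against group 1 the 14 fast members had a median of -1.16 and all were below 0, with 1 past the test, while the 9 slow members tested had -0.70 with 1 past it. Over all genes tested there the median was -0.04, and 0.282% were called lower. In group 4 against group 1 the medians were -0.88 (3 of 14 past the test) and -0.40 (2 of 9), beside -0.08 over all genes, of which 3.91% were called lower. Without Tpm3 and Atp2a2, which cells outside muscle also express, the slow median was -1.05 in group 3 and -0.94 in group 4 against group 1, beside fast medians of -1.16 and -0.88.

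The error of a level differed between members and between groups. In group 3 the SE of a member's log2 level had a median of 0.63, against 0.49 over all genes at 1 FPKM or more, and in group 1 it was 0.21 against 0.14. The 10 members at 1000 FPKM or more with an SE in group 3 had a median SE of 1.00, while the 81 genes of that level in the whole table had 0.58. The 16 members between 10 and 100 FPKM had 0.48 against 0.44. Across members the SE went with the level in each group (Spearman's rho 0.62, 0.69, 0.78 and 0.74 in groups 1 to 4, over 42, 41, 39 and 39 genes that share libraries). Members at 1000 FPKM or more in group 1 differed in group 3 by -1.40 to -0.90, with a median SE of 0.86 and 0 past the test, and those under 100 FPKM by -2.23 to 0.68, with a median SE of 0.48.

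**Figure D4:**
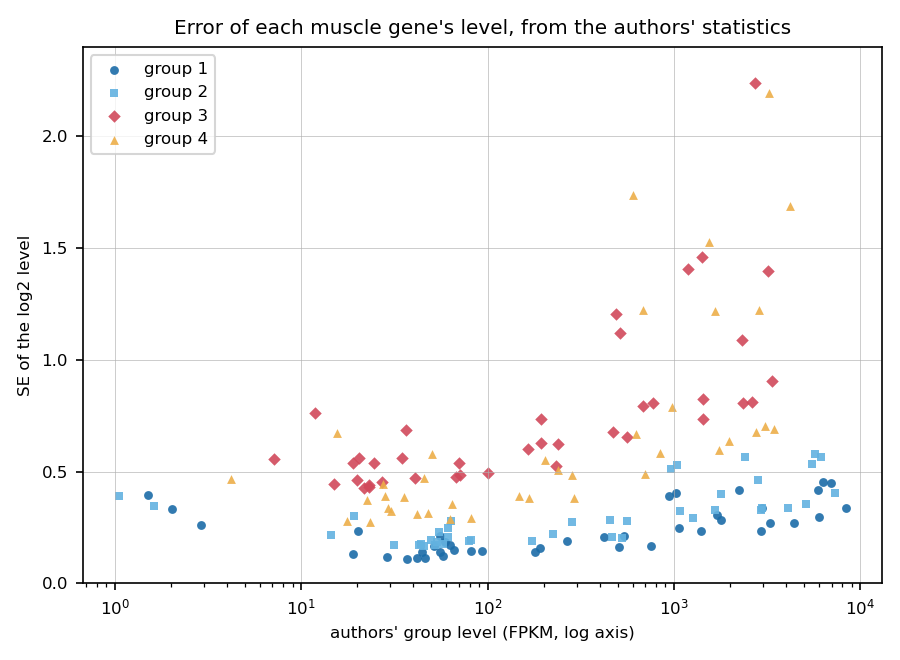
SE of the log2 level of each member at 1 FPKM or more, as the authors' statistics imply it, against its level (FPKM, log axis) in the 4 numbered groups. Groups 3 and 4 (medians 0.63 and 0.49) lie mostly above groups 1 and 2 (0.21 and 0.28), and the highest values, 2.24 and 2.20 for Tnnt3, belong to abundant genes.

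Other muscle genes were read from further lists that hold no member, in which 27 sarcomere and scaffold genes, 19 calcium genes and 16 genes of muscle metabolism were found and tested. In group 4 against group 1, 4, 6 and 6 of them were lower and 0 higher, with medians of -0.60, -0.66 and -1.12. Over all genes tested there the median was -0.08, and 3.91% were called lower. Of the calcium list, the largest falls were in Cacng1 and Cacnb1, subunits of the calcium channel with Cacna1s (1.30 ± 0.30 and 1.25 ± 0.30), and in Jsrp1, a protein of the junction between channel and store (1.25 ± 0.29). Lmod3, which seeds thin filaments, stood at 40.1, 39.0, 13.5 and 15.4 FPKM and fell by 1.32 ± 0.28. Metabolic falls were led by Pgam2, the muscle phosphoglycerate mutase (1.47 ± 0.36), and by Cox8b and Cox7a1, muscle-type subunits of cytochrome oxidase (1.40 ± 0.32 and 1.37 ± 0.32). In group 3 against group 1 only Lmod3, Jsrp1 and Cacng1 passed (1, 2 and 0 of the lists), with medians of -0.96, -0.74 and -1.20. The median over all genes was -0.04 there, and 0.282% of them were called lower. In group 4 against group 2, 2, 4 and 5 were lower, and in group 3 against group 2 none passed, with Lmod3 at q = 0.0564 in the authors' deposited table. Of all genes, 2.25% and 0.229% were called lower in those comparisons, in turn.

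Markers of other cells also differed between the groups, but not all in the same way. Of 10 keratinocyte markers, the 7 listed in all groups summed to 717 and 822 FPKM in groups 1 and 2. In groups 3 and 4 these 7 summed to 1749 and 1587 FPKM. The desmosome genes Dsg3 and Dsc2 passed as higher in groups 3 and 4 against group 1 (2 of 8 tested). Of all genes, 2.52% and 5.0% were called higher in those comparisons, in turn. In each of them 7 of the 8 keratinocyte markers tested were above 0 and 1 was below, at -0.78 and -0.87. The 8 fibroblast markers summed to 744, 856, 418 and 421 FPKM, the 8 adipocyte markers to 551, 500.3, 232 and 316, and the 5 endothelial markers to 55.2, 66.9, 33.2 and 41.8. The 6 smooth muscle markers, which include Des, summed to 1285, 1236, 576 and 732. Of satellite cells and developing muscle, 7 markers summed to 23.8, 27.0, 12.5 and 15.0 FPKM. The 6 salivary markers listed in all groups summed to 4058, 2355, 3293 and 393, the 5 Schwann cell markers to 111, 136, 94.9 and 101, and the 6 leukocyte markers to 181, 168, 106 and 143. The leukocyte sum is nearly all Lyz2, and the medians of the leukocyte markers tested were 0.44 and 0.50 in groups 3 and 4 against group 1, above 0. Lower in group 4 against group 1 were 3 of 8 fibroblast, 3 of 7 adipocyte and 3 of 6 smooth muscle markers tested, while 0 of 5 endothelial markers passed (medians -0.71, -1.57, -1.004 and -0.48), where 3.91% of all genes were called lower. In the same comparison 4 of 6 salivary markers tested were lower (Dcpp1, Dcpp2, Dcpp3 and Prb1, list median -5.67). Lower as well was 1 of 5 Schwann cell markers, Sox10, while the median of that list was 0.03. Of those 6 salivary markers, 1 was above 0, at 1.46. Pip, of the same list, was called higher in group 3 against groups 1 and 2 and in group 4 against group 2. The highest differences of the salivary list were 3.41, 3.56 and 1.60 there, in turn. Of all genes, 2.52%, 1.61% and 3.31% were called higher in those 3 comparisons. Dcpp1, Dcpp2, Dcpp3 and the smooth muscle gene Cnn1 were also lower in group 2 against group 1, where 0.305% of all genes were called lower. They were 3 of 5 salivary and 1 of 6 smooth muscle markers tested there. The 7 heart muscle markers summed to 416, 319, 100.1 and 62.2 FPKM. Nearly all of this was Actc1 in groups 1 and 2, and most of it in groups 3 and 4. Of the 3 heart muscle markers tested in groups 3 and 4 against group 1, 2 were above 0 and 1 below (medians 0.91 and 0.62). None of the summed markers was at 0, and the part of other cells in the lower muscle levels was not tested.

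The sequence around the start sites was read last. Promoters of 35 members were found by symbol in the RefSeq table (GRCm38.p6, 250 bases before to 50 after the start). The other 10 are Actn3, Atp2a2, Jph1, Mylk2, Myoz1, Neb, Tcap, Tnni2, Tnnt3 and Trdn. The E-box CAGCTG, a core that MyoD-family factors bind, was in 19 of the 35, 54.3% against 16.1% of 27025 promoters of that length. The looser E-box CANNTG, which contains it, was in 85.7% against 72.1%, the MEF2 box in 17.1% against 3.26%, the CArG box of serum response factor in 11.4% against 1.57% and TATAAA in 7 of the 35, against 14.2%. Both strands were searched. Of the 5 members that fell in group 4 against group 1, the promoter of Casq2 is not printed. Those of Mybpc2, Pvalb, Casq1 and Tnnt1 are shown with CANNTG and MEF2 matches in capitals, on the gene's strand. They lie at chr7:44524620-44524919, chr15:78206351-78206650, chr1:172219846-172220145 and chr7:4515926-4516225, all on the minus strand. Pvalb has 2 starts in the table and the first is printed.
Mybpc2: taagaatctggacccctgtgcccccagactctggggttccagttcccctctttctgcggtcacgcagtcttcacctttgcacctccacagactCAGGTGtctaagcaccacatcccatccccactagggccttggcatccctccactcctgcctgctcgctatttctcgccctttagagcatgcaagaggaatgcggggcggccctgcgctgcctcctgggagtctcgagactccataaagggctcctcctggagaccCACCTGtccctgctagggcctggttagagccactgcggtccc
Pvalb: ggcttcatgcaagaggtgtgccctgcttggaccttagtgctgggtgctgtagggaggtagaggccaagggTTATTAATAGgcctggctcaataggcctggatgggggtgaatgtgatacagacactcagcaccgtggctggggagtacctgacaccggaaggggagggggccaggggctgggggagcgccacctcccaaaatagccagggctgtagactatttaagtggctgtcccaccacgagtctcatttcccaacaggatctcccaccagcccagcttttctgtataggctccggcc
Casq1: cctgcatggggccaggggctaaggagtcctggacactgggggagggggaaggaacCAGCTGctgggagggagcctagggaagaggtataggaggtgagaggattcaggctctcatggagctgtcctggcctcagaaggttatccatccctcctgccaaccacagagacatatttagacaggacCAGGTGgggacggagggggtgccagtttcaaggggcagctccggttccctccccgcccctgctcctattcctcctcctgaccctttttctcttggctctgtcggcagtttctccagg
Tnnt1: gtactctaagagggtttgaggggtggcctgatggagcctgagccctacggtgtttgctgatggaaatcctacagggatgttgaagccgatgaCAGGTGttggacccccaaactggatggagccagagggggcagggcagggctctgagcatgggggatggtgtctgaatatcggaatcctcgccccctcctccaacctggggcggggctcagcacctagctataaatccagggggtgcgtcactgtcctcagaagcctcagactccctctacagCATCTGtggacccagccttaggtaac
Mybpc2 holds 2 E-boxes CANNTG and no CAGCTG or MEF2 match. Pvalb holds no E-box and 1 MEF2 match. Casq1 holds 2 E-boxes, 1 of them CAGCTG, and Tnnt1 holds 2 E-boxes and a TATAAA. Matches are descriptions of these letters only.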

How the data were processed

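The tables hold 1 row per gene for each of the 6 pairs of 4 numbered groups. Per the series design text, the reads were compared with mm9 and the levels are FPKM values that the authors obtained with Cufflinks, n = 3 per group. GSNAP 2011.11.17 and edgeR appear in the submitters' processing notes without a role, and their use is not stated. The authors' deposited p-value and q-value were used as they stand. The score deposited as test statistic gave the p-value as a 2-sided normal p in 100% of tests (tolerance 0.001), and q equalled a Benjamini-Hochberg adjustment over all 92458 tests. The deposited log2 ratio, stored as a score with extreme values where a level is 0, was divided by the statistic to give its SE. Per gene, 4 group variances were solved from the 6 squared SEs (43 of 45 members), and SEs were moved to log2(FPKM + 1) by the delta method. For genes near the floor this makes differences and SEs smaller than those behind the authors' q. Levels marked as over the read limit were treated as missing.

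The members and lists were chosen with earlier results of these data known. Named are the markers Mybpc2, Pvalb and Acta1, every member past the test, both genes of each of the 10 pairs, the highest and most changed members of each role, and up to 4 called genes of each further list; other members named were chosen after their values were seen. Of the further lists, 2 genes, Klhl40 and Klhl41, were not found by symbol. In GENCODE vM1 (mm9), 8 members share exon bases with another coding gene, among them Tnnc2 with Ube2c and Myl2 with Ccdc63, and strand use in counting is not stated. Alternatives were a q threshold of 0.01, no filter or 5 FPKM, a 2-fold requirement, adjustment within a comparison, centring, 1 variance per gene, pseudocounts of 0 and 0.1, and leaving out members that other cells express. Python 3.11.15, pandas 2.3.3 and scipy 1.17.1 were used.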

Additional observations from a re-analysis of the deposited data

How the results depend on the processing

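No paired analysis was possible because the tables hold 1 value per group and no values per sample, so replicate numbers cannot enter a fit; leaving out single replicates was not run for the same reason. Of 48 alternatives for the number of members past the test, 39 stayed within 1.5 times, which does not mean that the same members were called. The 39 include every alternative of group 2 against group 1 and of group 4 against group 3, where 0 members stayed 0. All changes fell in the other comparisons. In group 3 against group 1 the count of 2 became 1 at a q threshold of 0.01, with a filter of 5 FPKM, after centring on all genes and after centring on the members (then Tpm3, higher), and 5 with 1 variance per gene. In group 4 against group 1 the count of 5 became 3 at a q threshold of 0.01 and with 1 variance per gene. In group 3 against group 2 Mybpc2 was lost at a q threshold of 0.01 (0 members; 12 had an unadjusted p under 0.05), and centring on the members left Tpm3 (higher) in its place, with Mybpc2 at an adjusted p of 0.152 by the normal test. The count of 3 in group 4 against group 2 became 5 with adjustment within the comparison. There Tnnt1 was lost at a q threshold of 0.01, Pvalb with 1 variance per gene, and both after centring on the members, which left Mybpc2 lower and Tpm3 higher. In group 4 against group 1 the slow median of -0.40 became -0.74 with a pseudocount of 0 and -0.94 without members that other cells express; without these it also went from -0.70 to -1.05 in group 3 against group 1, from -0.30 to -0.51 in group 4 against group 2 and from -0.12 to -0.29 in group 2 against group 1. The median fast minus slow level of group 4 rose from 9.28 to 10.3 and 10.2 with pseudocounts of 0 and 0.1, because slow genes lie near the floor. For the single pairs, 43 of 80 alternatives stayed within the SE of the pair's difference in level, 37 did not, and 0 changed sign. The pair with Myh7 has no SE and was counted among the 37. Centring on all genes moved the share of calls that were higher, over the whole table, from 56.1% to 69.5% in group 4 against group 1 and from 59.5% to 73.1% in group 4 against group 2. With 1 variance per gene, it went from 89.9% to 79.1% and from 87.6% to 71.1% in group 3 against groups 1 and 2. The cause of these changes was not tested beyond the alternatives' construction.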
